A study of Mus musculus with 6 samples.

Results

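The genes described here are 7 members of the KIT and endothelin signalling routes to melanoblasts, the migrating precursors of pigment cells. They are Kit, Kitl, Edn3, Ednrb, Edn1, Ednra and Mitf, taken by symbol from the 28000 genes of the count matrices, and all 7 were present. Skin of the back and flank of mouse embryos was dissociated, sorted for DAPI-excluding live cells and profiled as single cells, with tags from the 3′ end of transcripts. Control libraries, labelled wild type on the CD1 strain, numbered 2 at each stage, embryonic days 13.5 (E13.5) and 14.5 (E14.5). Loss of function (LOF) was represented by a single library per stage, also CD1, of genotype PDGFRalphaCreER(Lo);beta-catfl/fl;mTmG. In these embryos a tamoxifen-inducible Cre recombinase under Pdgfra control, active in fibroblasts, deletes floxed beta-catenin, and the mTmG reporter changes from tdTomato to eGFP where Cre has acted. Mice of that genotype received 1 oral dose of tamoxifen at E11.5. The labels give 30 and 15 micrograms per gram of body weight without tying either dose to a library, and name no tamoxifen for wild-type embryos, so that genotype and drug cannot be told apart. Each library pooled 3 to 4 embryos. The labels do not say that replicate libraries came from separate litters, so p-values measure the spread between these libraries.

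KIT is a receptor tyrosine kinase that melanoblasts and mast cells depend on, and Kitl encodes its ligand, made by surrounding skin cells. Endothelin-3, encoded by Edn3, signals through the G-protein-coupled endothelin receptor type B (Ednrb) and supports the expansion and spread of neural crest-derived pigment cell precursors. Edn1 encodes endothelin-1, a ligand made by vascular endothelium, and Ednra the type A receptor, known from vascular smooth muscle. Mitf encodes the transcription factor that specifies the melanocyte lineage and is also active in mast cells, and KIT signalling is known to act on the MITF protein.

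On GRCm38, in the GENCODE M21 annotation, all 7 are protein-coding genes. Kit lies at chr5:75574916-75656722 (+), Kitl at chr10:100015630-100100416 (+), Edn3 at chr2:174760619-174784042 (+), Ednrb at chr14:103814625-103844402 (-), Edn1 at chr13:42301476-42307990 (+), Ednra at chr8:77663031-77724464 (-) and Mitf at chr6:97807052-98021349 (+). RefSeq promoter windows (GRCm38.p6, 250 bases before to 50 after a start) covered all 7 genes with 10 windows, 3 of them for Mitf and 2 for Kit. They were searched on both strands for the cyclic AMP response element TGACGTCA, a motif of the melanocyte Mitf promoter. Of 32851 windows in the table, 1.79% hold these letters, and among the 7 genes only the most downstream Mitf window does. The shorter TGACGT, which lies within it, is in 7.51% of all windows, and among these genes it is in that Mitf window and in the Ednrb window. The Mitf window is chr6:97991533-97991832 (+) and the Ednrb window chr14:103843652-103843951 (-). They are shown because they are the windows of these genes that hold TGACGT, with the matching letters in capitals.
Mitf: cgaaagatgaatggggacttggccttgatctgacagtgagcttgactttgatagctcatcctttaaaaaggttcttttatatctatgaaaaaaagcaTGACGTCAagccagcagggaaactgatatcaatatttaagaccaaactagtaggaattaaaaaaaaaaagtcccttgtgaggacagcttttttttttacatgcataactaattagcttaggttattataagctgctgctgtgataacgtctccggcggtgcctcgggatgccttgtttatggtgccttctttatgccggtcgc
Ednrb: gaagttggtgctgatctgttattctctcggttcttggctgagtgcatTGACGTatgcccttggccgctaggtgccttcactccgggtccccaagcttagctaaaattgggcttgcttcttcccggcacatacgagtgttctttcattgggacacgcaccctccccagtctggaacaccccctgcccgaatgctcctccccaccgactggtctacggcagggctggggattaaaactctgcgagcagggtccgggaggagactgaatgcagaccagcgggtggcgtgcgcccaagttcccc
4 further cores, ACAAAG (18.7% of all windows), ACAATG (12.6%), CATGTG (14.2%) and CACGTG (7.15%), were found in none of the 10 windows. The GC box GGGCGG, in 35.7% of all windows, was in both Kit windows, the most upstream Mitf window and the Kitl window. A match or its lack describes these letters only, and 3′ tags cannot tell which Mitf start was used.

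The matrices held 41594 barcodes with 53461986 to 86446575 unique molecular identifiers (UMIs) per library, and 40653 barcodes passed the filters, at median depths of 7980 to 11234.5 UMIs. Pairs of libraries shared 45 to 103 barcode sequences, at most 1.46% of the smaller library. Levels are counts per 1000000 UMIs (CPM) over the summed cells of a class, in the order E13.5 control 1 and 2, E14.5 control 1 and 2, E13.5 LOF, E14.5 LOF. Melanoblasts were cells with at least 5 UMIs of Dct, Pmel and Mlana together, and mast cells those with at least 10 UMIs of Cpa3. After cells that reached another class were set aside there were 39, 40, 30, 21, 14 and 36 melanoblasts and 31, 45, 87, 104, 55 and 190 mast cells. Markers defined 80 to 169 Schwann cells, 771 to 2458 keratinocytes and 2893 to 4545 fibroblasts per library. The 3 melanoblast markers summed to 5135 to 11302 CPM in the melanoblasts and to at most 7.9 CPM in the 4 other classes. Schwann markers were at 134 to 374 CPM in melanoblasts against 1348 to 1998 CPM in Schwann cells, since melanoblasts that also reached the Schwann cut were kept. Few cells lay near the melanoblast rule: 5 in all held 3 or 4 marker UMIs and 6 held 5 to 9.

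Some libraries stood apart in ways that stage and genotype do not account for. In fibroblasts Gm42418, a predicted gene that overlaps ribosomal RNA sequence, reached 1761 CPM in E14.5 control 1 and 1157 CPM in E14.5 LOF, with the remaining 4 libraries at 54.4 to 80.4 CPM. Control replicate 2 of each stage held Gstp1, which encodes a glutathione transferase, at 145 and 126 CPM, against 21.9 to 32.4 CPM elsewhere. An eGFP UMI, which a wild-type embryo should lack, was found in 54.5% and 46.6% of fibroblasts of those same replicate 2 controls, against 3.04% and 5.63% in replicate 1 and 48.2% and 60.3% in LOF. The unrecombined form of the reporter, tdTomato, was at 1016, 811, 39.4, 286, 979 and 59.6 CPM in keratinocytes, so each of the 4 libraries labelled wild type held reporter transcripts, replicate 1 included. Ctnnb1, the targeted gene, was at 195, 183, 184, 181, 249 and 198 CPM in fibroblasts. The labels do not say which exons are floxed, and 3′ tags read only the end of the transcript, so this does not check the deletion.

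Kit, the receptor, was at its highest in melanoblasts and mast cells. Melanoblasts held Kit at 247, 226, 587, 308, 233 and 837 CPM, from 50 to 224 UMIs per library. At least 1 Kit UMI was found in 92.3%, 77.5%, 90%, 90.5%, 92.9% and 97.2% of melanoblasts. Mast cells held 201, 159, 414, 254, 257 and 506 CPM, with a UMI in 85.6% to 96.4% of cells. Melanoblasts were above mast cells in 5 of 6 libraries, but the ranges overlapped, and both classes were at their highest in E14.5 LOF and E14.5 control 1. Endothelial cells came next at 4.66 to 48.4 CPM and did not reach the mast cell range. Fibroblasts (0.849 to 3.01 CPM) and keratinocytes (0.166 to 0.641 CPM) had a Kit UMI in at most 2.58% and 0.845% of cells, a level that RNA free in the suspension could also give.

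Ednrb was shared by melanoblasts and Schwann cells, both derived from the neural crest. Melanoblasts held 740, 611, 854, 353, 457 and 818 CPM, with a UMI in 90% to 100% of cells. Schwann cells held 643, 614, 919, 440, 880 and 938 CPM, with a UMI in 83.8% to 99.2% of cells. E14.5 control 2 was lowest in both classes. Macrophages came next at 187 to 362 CPM, with a UMI in 57.8% to 79.8% of cells, below melanoblasts in all 6 libraries although the ranges overlapped slightly. Mast cells (0 to 13.2 CPM), fibroblasts (1.60 to 4.52 CPM) and keratinocytes (0.447 to 1.76 CPM) were far lower.

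Mitf was highest in melanoblasts, at 522, 344, 653, 303, 285 and 650 CPM, with a UMI in 71.4% to 100% of cells. Mast cells followed at 69.5, 78.4, 117, 70.4, 60.3 and 124 CPM, with a UMI in 55.8% to 63.2% of cells. The ranges of the classes did not overlap. Macrophages held 16.6 to 21.3 CPM and Schwann cells 4.02 to 16.7 CPM. Fibroblasts (2.28 to 4.38 CPM) and keratinocytes (0.364 to 1.02 CPM) were lower still.

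Single melanoblasts carried the receptors and the transcription factor together. Kit, Ednrb and Mitf were all detected in 34 of 39, 27 of 40, 23 of 30, 14 of 21, 13 of 14 and 30 of 36 melanoblasts. No melanoblast lacked a UMI of all 3 genes. Detection depends on depth: with each cell thinned to 3000 UMIs, Kit was seen in 35.7% to 88.6% of melanoblasts, Ednrb in 57.1% to 91.4% and Mitf in 35.7% to 74.3%.

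**Figure D1:**
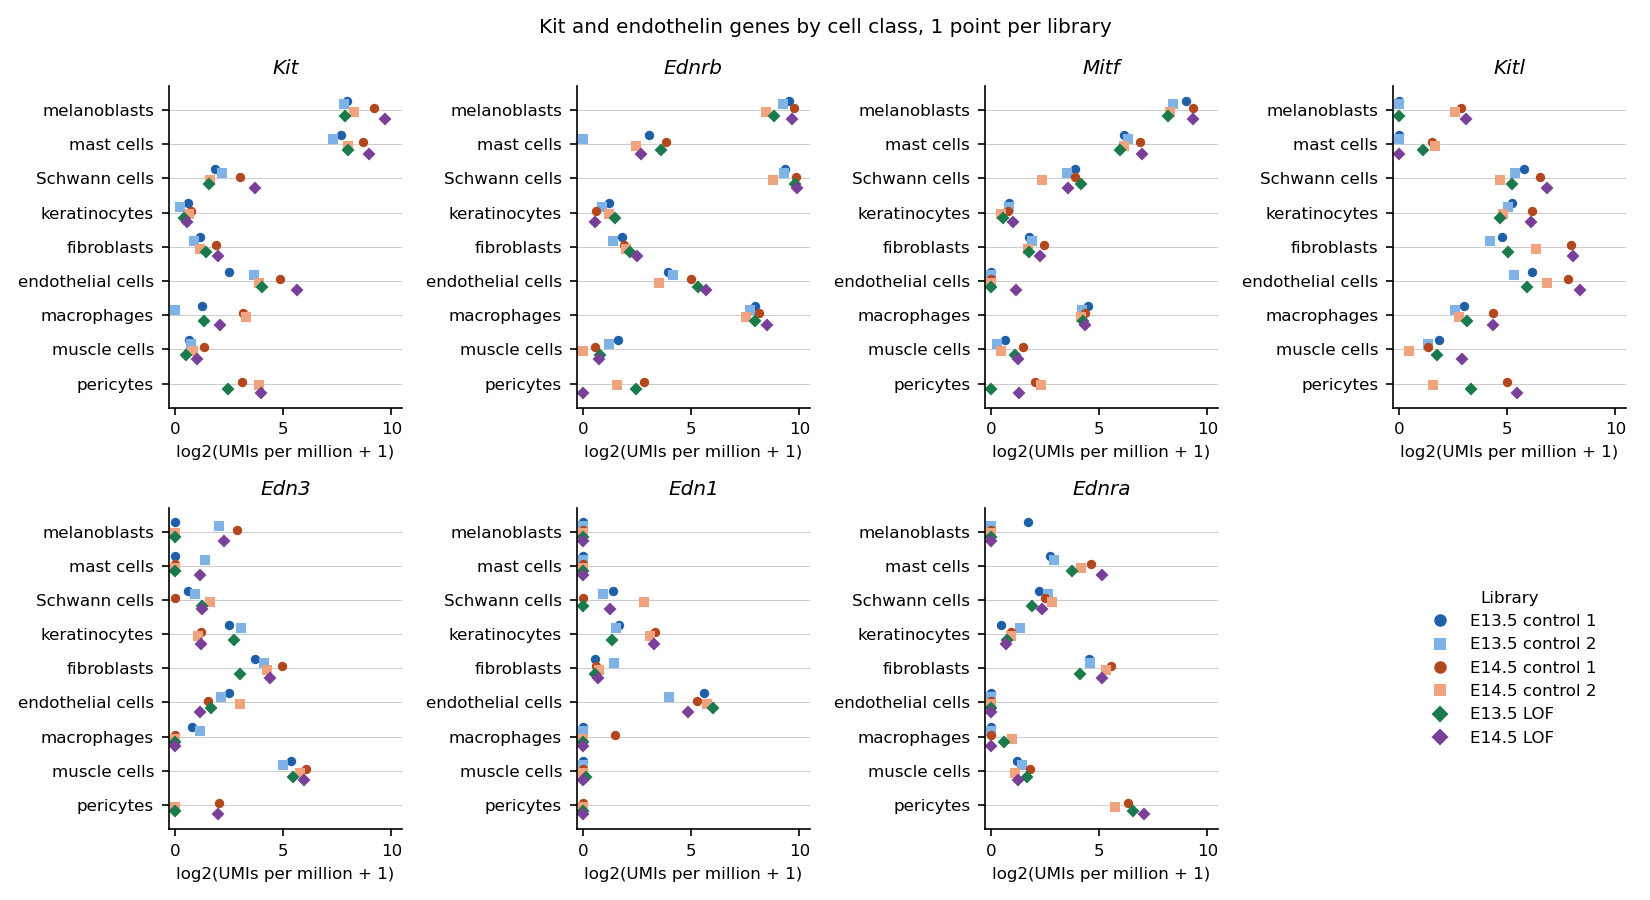
Level of each of the 7 genes (x axis, log2 of CPM plus 1) in the marker-defined cell classes (y axis), with 1 point per library and pericytes in 4 libraries. Kit and Mitf lie highest in melanoblasts, Ednrb in Schwann cells and melanoblasts, Kitl in endothelial cells and fibroblasts, Edn3 in muscle cells, Edn1 in endothelial cells and Ednra in pericytes.

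Kitl, the KIT ligand, was found in other classes rather than in melanoblasts. Fibroblasts held 26.2, 17.1, 247, 79.5, 31.5 and 259 CPM, with a UMI in 19.5%, 11.4%, 66.1%, 35.2%, 21.2% and 65.3% of cells. Keratinocytes held 36.2, 31.7, 69.7, 26.6, 24.6 and 68.3 CPM. In the dermal cells every E14.5 library was above every E13.5 library, whereas the stages overlapped in keratinocytes. Schwann cells held 24.1 to 113 CPM and endothelial cells 69.9, 38.1, 222, 113, 58.4 and 330 CPM. The ranges of these 4 classes overlapped. Melanoblasts had 5 Kitl UMIs in all, in 3 libraries, and mast cells had 6, a level that free RNA could also give.

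Edn3, the endothelin ligand for EDNRB, was highest in muscle cells, at 30.9 to 65.4 CPM. Fibroblasts followed at 11.9, 16.1, 29.9, 18.2, 7.10 and 19.8 CPM, below muscle in all 6 libraries and outside its range. Keratinocytes held 4.63, 7.29, 1.28, 1.09, 5.69 and 1.30 CPM. In keratinocytes all 3 E13.5 libraries were above all 3 E14.5 libraries, and in fibroblasts the stages lay the other way round. Melanoblasts had 4 Edn3 UMIs in 180 cells.

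Edn1 was an endothelial gene in this skin, at 46.6, 14.9, 36.8, 51.5, 62.7 and 27.8 CPM. Keratinocytes came second at 2.13, 1.91, 9.11, 7.59, 1.52 and 8.82 CPM, higher in each E14.5 library than in any E13.5 library. Melanoblasts, mast cells and pericytes had no Edn1 UMI. A count of 0 allows up to 6.72 to 14.9 CPM per library in melanoblasts and 1.82 to 5.49 CPM in mast cells.

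Ednra, the type A receptor, was highest in pericytes, at 51.5 to 131 CPM in the 4 libraries with at least 10 such cells. Fibroblasts held 21.7, 22.8, 46.2, 39.1, 16.3 and 34.4 CPM and mast cells 5.49, 6.54, 23.5, 16.9, 12.3 and 34.0 CPM. Fibroblasts were above mast cells in all 6 libraries, with overlapping ranges. Melanoblasts had 1 Ednra UMI in 180 cells, and endothelial cells had none.

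Classes were then compared within libraries with the edgeR quasi-likelihood test, with library as a block and p-values adjusted over 10627 genes. Edn1 did not pass the filter on low counts, so 6 of the 7 genes were tested. Against Schwann cells, 4 of 6 were past the test, where 26.7% of all genes were. Kit was 6.39 ± 0.18 (SE) log2 units higher in melanoblasts (adjusted p = 4.57e-23) and Mitf 5.11 ± 0.17 higher (adjusted p = 1.07e-21). Both were higher in 6 of 6 libraries. Kitl was lower, by −4.61 ± 1.02 (adjusted p = 0.0016). Ednra was also lower, at adjusted p = 0.0491, but that call was lost in 8 of 12 alternative settings. Ednrb differed by −0.21 ± 0.20 (adjusted p = 0.526), with 5 of 6 libraries lower in melanoblasts. Melanoblasts that also reached the Schwann cut were kept in this fit. Without them 27, 31, 24, 19, 8 and 24 melanoblasts would be left, and the class comparisons were not run on those, so their part in these differences was not tested.

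Against mast cells, the other KIT-dependent class, 3 of 6 genes were past the test, against 46% of all genes. Kit differed by 0.06 ± 0.11 log2 units (adjusted p = 0.674), which does not show that the levels are equal. Mitf was 2.05 ± 0.13 higher in melanoblasts (adjusted p = 2.81e-14) and Ednrb 6.21 ± 0.34 higher (adjusted p = 1.01e-12), each in 6 of 6 libraries. Ednra was lower in melanoblasts in 6 of 6 libraries (adjusted p = 1.91e-06), with the single UMI given above.

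Against keratinocytes 4 of 6 genes were past the test and against fibroblasts 6 of 6, where 42.5% and 44.2% of all genes were. Compared with fibroblasts, Kit was 7.64 ± 0.14, Ednrb 7.65 ± 0.26 and Mitf 7.14 ± 0.15 log2 units higher in melanoblasts, and Kitl was −5.11 ± 0.92 lower (adjusted p = 0.0001 for Kitl by edgeR). Compared with keratinocytes the differences were 9.62 ± 0.17 for Kit, 9.22 ± 0.30 for Ednrb, 9.19 ± 0.17 for Mitf and −4.31 ± 1.02 for Kitl (adjusted p = 0.00149 for Kitl by edgeR). Edn3 was lower in melanoblasts than in fibroblasts (adjusted p = 0.025), a call lost without E13.5 control 2 (adjusted p = 0.0571) or E14.5 control 2 (adjusted p = 0.0527). In 4 of the 12 settings, namely the looser cut, no top doublet scores, no E13.5 control 1 and no E14.5 LOF, Edn3 did not pass the filter and was not tested.

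Between the dermal and epidermal sources of ligand, each of the 6 genes tested was lower in keratinocytes than in fibroblasts, where 70.4% of all genes were past the test. Kit, Ednrb and Mitf were at most 4.52 CPM in either class. Edn1, not tested in this fit, went the other way and was higher in keratinocytes in 6 of 6 libraries. Edn3 was −2.36 ± 0.39 log2 units lower in keratinocytes (adjusted p = 1.19e-05) and Ednra −5.18 ± 0.22 lower, each in 6 of 6 libraries. Kitl was −0.80 ± 0.30 lower (adjusted p = 0.0217), but keratinocytes were the higher class in 2 of 6 libraries. The Kitl call was lost with DESeq2 (adjusted p = 0.0819) and without any 1 of the E14.5 libraries (adjusted p = 0.151 to 0.195). An exact sign-flip test over the 6 libraries gave p = 0.219 for Kitl (adjusted p = 0.255 over 35 such tests), where the smallest p the design allows is 0.03125.

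**Figure D2:**
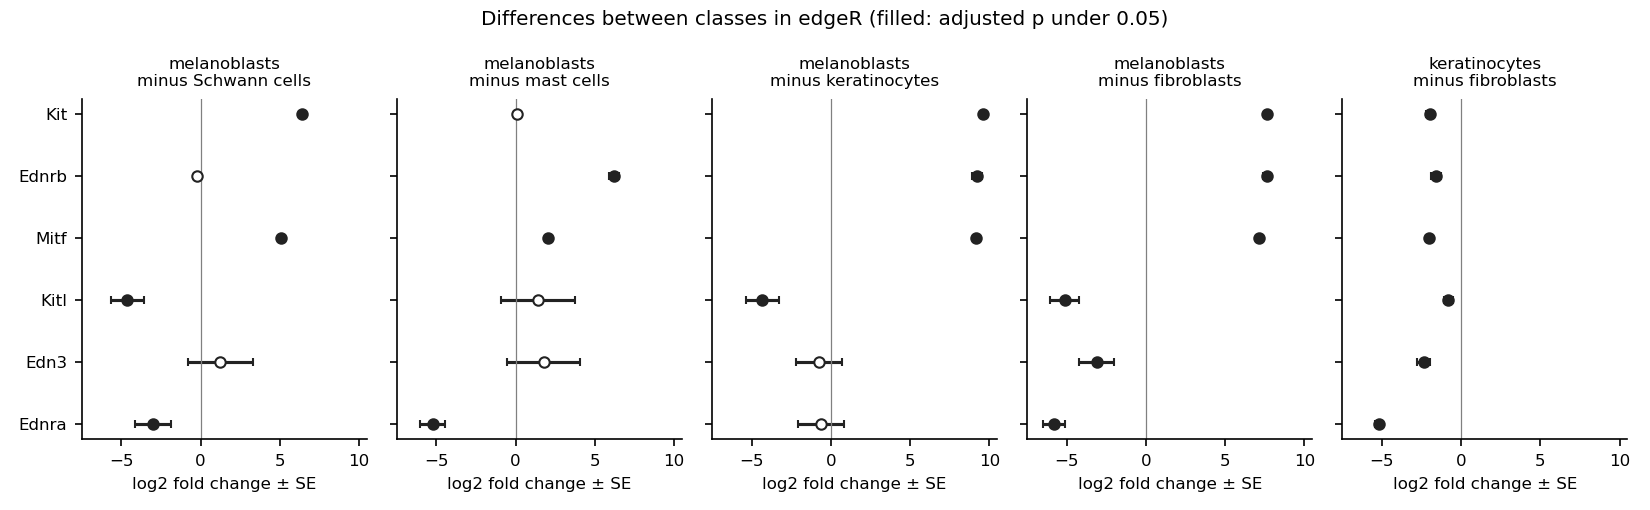
Fitted log2 difference of 6 genes between classes (x axis) with its standard error as bars, from the edgeR fit with library as a block, filled where the adjusted p is under 0.05. Kit, Mitf and Ednrb lie far above 0 in melanoblasts against fibroblasts and keratinocytes, Kit lies near 0 against mast cells (0.06) and Ednrb near 0 against Schwann cells (−0.21).

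Lists of the same pathways were described by their counts over the same fits. Of 20 KIT cascade genes, 3 were higher and 2 lower in melanoblasts than in Schwann cells, with a list median of 0.06 log2 units against −0.03 for all genes. These 25% of the list compare with 26.7% of all genes past the test, a share near the background. Higher were Etv5 (1.16 ± 0.26, adjusted p = 0.000885 by edgeR), a transcription factor induced by receptor tyrosine kinases, and the adaptors Shc1 (0.87) and Grb2 (0.80). Lower were the phosphatase Ptpn6 (−1.44) and the adaptor Gab2 (−1.29). Against mast cells 6 were higher and 4 lower (median 0.50), led by the feedback inhibitor Spry4 (4.70), the adaptor Gab1 (3.67) and the transcription factor Etv1 (3.53) on the higher side and Ptpn6 (−2.88) on the lower. That is 50% of the list, near the 46% of all genes. Against keratinocytes 11 were higher and 2 lower (median 0.53), 65% of the list against 42.5% of all genes. Against fibroblasts 6 were higher and 3 lower (median 0.14), and the lower ones were the feedback inhibitors Spry2 (−2.44), Spry4 (−2.02) and Spry1 (−1.95). The 45% of the list past the test there is near the 44.2% of all genes.

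Of the 14 endothelin cascade genes 12 were tested, of which 2 were higher and 3 lower in melanoblasts than in Schwann cells (median −0.69), 2 and 4 against mast cells (median −0.48), 1 and 1 against keratinocytes (median −0.04) and 1 and 6 against fibroblasts (median −0.72). The shares past the test were 41.7%, 50%, 16.7% and 58.3% in that order, where those of all genes were 26.7%, 46%, 42.5% and 44.2%. Plcb4, a phospholipase C that acts downstream of Gq-coupled receptors, was higher in melanoblasts than in each of the 4 classes. Its log2 differences were 2.21 ± 0.37, 2.82 ± 0.42, 3.20 ± 0.33 and 2.49 ± 0.31 in the order Schwann cells, mast cells, keratinocytes and fibroblasts. Its relative Plcb1 was lower than in Schwann cells (−5.27) and fibroblasts (−4.80). Ece1, which cleaves the precursors of endothelins to their active forms, was lower than in Schwann cells (−1.40 ± 0.28), keratinocytes (−1.33 ± 0.27) and fibroblasts (−0.93 ± 0.28). Of the genes for Gq family proteins, Gna11 was 2.17 ± 0.22 higher than in mast cells and Gnaq was −0.45 ± 0.18 lower.

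Of 12 tested of the 13 melanoblast transcription factors, 4 were higher and 5 lower than in Schwann cells, 10 and 0 than in mast cells, 8 and 3 than in keratinocytes, and 10 and 1 than in fibroblasts. The shares past the test were 75%, 83.3%, 91.7% and 91.7%, against 26.7%, 46%, 42.5% and 44.2% of all genes. Tfap2a, a neural crest factor, was 2.45 ± 0.24 higher than in Schwann cells and 7.31 ± 0.25 higher than in fibroblasts. Foxd3, a factor of early neural crest, was −2.85 ± 0.24 lower than in Schwann cells and 7.15 ± 0.45 higher than in fibroblasts. Pax3 was 8.58 ± 0.46 higher than in mast cells, and Sox10 7.23 ± 0.33 higher. Of 16 tested of the 18 pigment and melanosome genes, 14, 16, 15 and 15 were higher in the same order of classes, with 93.8% to 100% of the list past the test in each. They included Tyr, the rate-limiting enzyme of melanin synthesis, and the melanosome protein gene Gpnmb, at 12.4 ± 0.28 and 11.1 ± 0.22 over fibroblasts. Melanoblasts were chosen by the pigment genes Dct, Pmel and Mlana, so the high counts of this list follow largely from the class rule. Of 12 tested of the 15 migration and survival genes, 5, 9, 8 and 3 were higher and 5, 2, 1 and 3 lower. The shares past the test were 83.3%, 91.7%, 75% and 50%, the last of them, against fibroblasts, near the 44.2% of all genes. Erbb3, the neuregulin receptor, was 6.49 ± 0.22 and the epithelial cadherin gene Cdh1 6.04 ± 0.28 higher than in fibroblasts, while the chemokine gene Cxcl12 was −5.34 lower. Of 10 cell cycle genes none was past the test against Schwann cells, and 4 were higher than in fibroblasts, a share of 40% that is near the 44.2% of all genes. Of 9 tested of the 12 mast cell granule and receptor genes all were lower than in mast cells, 100% of those tested against 46% of all genes. Mast cells were chosen by the mast cell gene Cpa3, so this too follows largely from the class rule.

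Within fibroblasts, Kitl and Edn3 differed in opposite directions between cells rich in upper and in deep dermis markers, with no position measured. Fibroblasts of each library were ranked by the share of their UMIs from upper dermis markers (Lef1, Dkk1, Crabp1) and, separately, from deep dermis markers (Mfap5, Dlk1, Aspn). The top 1 in 3 of each ranking, without cells in both, are called upper and deep fibroblasts here. They are ranges of a score, not cell types, with 945 to 1471 cells each per library. In E13.5 LOF the upper fibroblasts held upper markers at 1283 CPM and deep markers at 3920 CPM, so there the name gives only a rank. In the other libraries they held upper markers at 3881 to 7169 CPM and deep markers at 1134 to 1882 CPM. Kitl was at 38.2, 29.1, 358, 126, 48.2 and 309 CPM in deep and at 17.8, 7.63, 107, 37.2, 22.9 and 161 CPM in upper fibroblasts. Edn3 was at 8.74, 10.0, 8.29, 6.86, 6.06 and 4.81 CPM in deep and at 16.5, 22.5, 53.9, 25.8, 7.71 and 43.0 CPM in upper fibroblasts. Ednra was at 10.9 to 19.0 CPM in deep and at 16.8 to 72.4 CPM in upper fibroblasts. In every library deep fibroblasts had more Kitl and upper fibroblasts more Edn3 and Ednra.

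In the edgeR fit, upper minus deep, 4 of 6 genes were past the test, against 50.2% of all genes. Kitl differed by −1.40 ± 0.15 log2 units (adjusted p = 0.000437), Edn3 by 1.72 ± 0.41 (adjusted p = 0.013) and Ednra by 1.54 ± 0.25 (adjusted p = 0.00261). Kit, at most a few CPM in fibroblasts, differed by 1.73 ± 0.30 (adjusted p = 0.0021). The exact sign-flip test over libraries gave its smallest possible p of 0.03125 for each of these 4 genes and for Mitf (adjusted p = 0.04375 over the 7), which was lower in upper fibroblasts in 6 of 6 libraries. All 10 cell cycle genes were higher in upper fibroblasts, 100% of the list against 50.2% of all genes past the test. Their median was 1.40 log2 units against 0.02 for all genes, and the part of the cell cycle in the differences above was not tested. Of 19 KIT cascade genes 6 were higher there and none lower (median 0.35, 31.6% of the list against 50.2% of all genes), among them Etv4 (2.78) and Dusp6 (1.71), known as feedback and target genes of MAP kinase signalling. Of 11 endothelin cascade genes 2 were higher and 1 lower, 27.3% of those tested against 50.2% of all genes.

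Fibroblasts with at least 3 UMIs of the dermal condensate markers Sox2, Sox18 and Foxd1, the cells that gather under hair placodes, were nearly all from E14.5. There were 103 in control 1, 29 in control 2 and 64 in LOF, against 0 to 3 at E13.5. Their Edn3 level was 297 CPM (95% Poisson interval 265 to 332), 187 CPM (136 to 252) and 279 CPM (237 to 326), where intervals cover counting error only. Edn3 in all fibroblasts of these libraries was 18.2 to 29.9 CPM. Their Kitl level was 31.4, 17.4 and 31.7 CPM, below the 79.5 to 259 CPM of all fibroblasts. Ednrb, near background in fibroblasts as a whole, was at 43.1 CPM in control 1 (44 UMIs), 13.1 CPM in control 2 (3 UMIs) and 88.2 CPM in LOF (50 UMIs). With 3 libraries these differences were left without a test. Condensate-marker cells were not taken out of the upper and deep fibroblasts. Condensate markers were at 34.9, 10.9 and 27.3 CPM in upper fibroblasts of E14.5 control 1, control 2 and LOF. In deep fibroblasts of these libraries they were at 2.79, 1.32 and 1.14 CPM. The part of condensate-marker cells in the Edn3 difference between upper and deep fibroblasts was not tested.

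Keratinocytes also differed by layer markers. Suprabasal cells (at least 10 UMIs of Krt1 and Krt10, 230 to 332 cells per E14.5 library) held Kitl at 4.63, 2.66 and 8.10 CPM in E14.5 control 1, control 2 and LOF. Keratinocytes with neither suprabasal nor placode markers held 86.3, 32.6 and 78.5 CPM. The suprabasal level was lower in all 3 libraries, by 9.70 to 18.6 times. Cells with placode markers held Kitl at 77.1, 16.4 and 79.2 CPM, and no Edn1 UMI was found in them at E14.5. Edn1 was at 5.56, 6.84 and 4.47 CPM in suprabasal cells and 10.7, 8.47 and 9.94 CPM in the other keratinocytes.

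**Figure D3:**
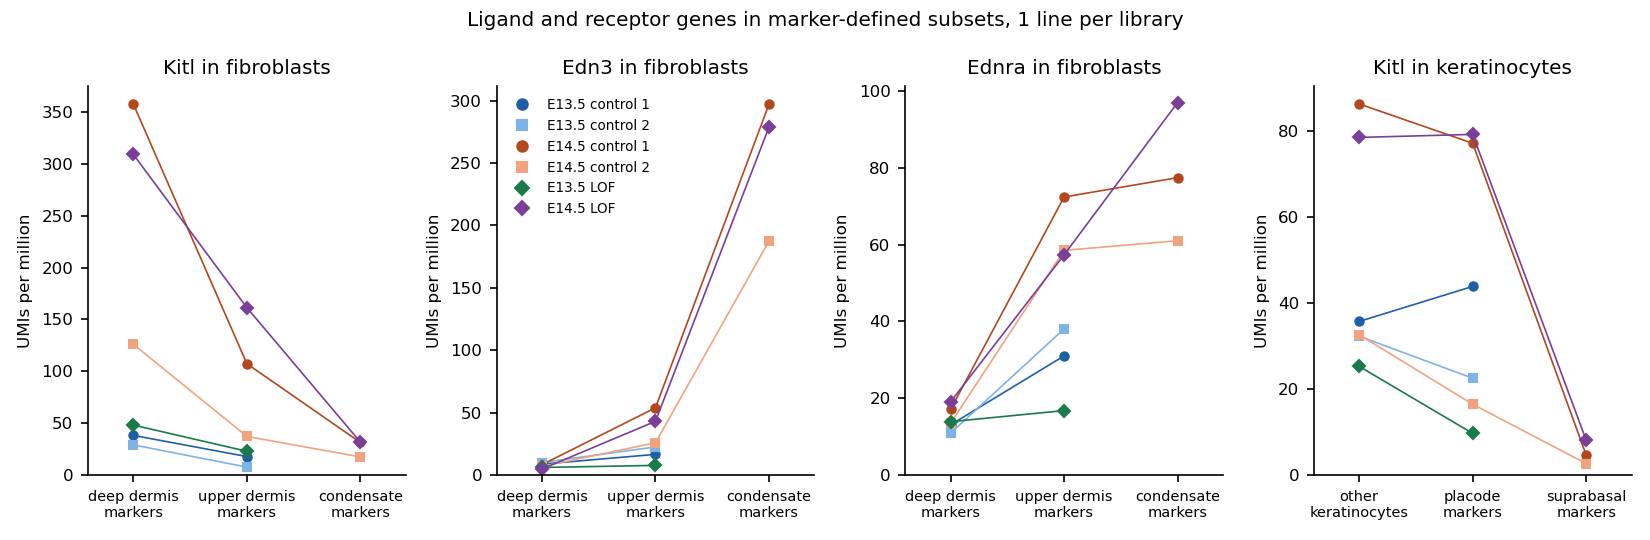
Levels of Kitl, Edn3 and Ednra in subsets of fibroblasts and of Kitl in subsets of keratinocytes (y axis, CPM, linear from 0), with points of a library joined by a line and condensate and suprabasal subsets shown at E14.5 only. Kitl lies higher in deep and Edn3 and Ednra higher in upper fibroblasts, and Edn3 reaches 187 to 297 CPM in condensate-marker fibroblasts.

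The stages were compared in the 4 control libraries. None of the genes was past the edgeR test in any of the 5 classes. For melanoblasts this was 0 of 3 tested genes against 0% of all genes, for mast cells 0 of 3 against 0.252%, for Schwann cells 0 of 3 against 0.0607%, for keratinocytes 0 of 6 against 0.901% and for fibroblasts 0 of 7 against 0.284%. At an unadjusted p under 0.05 there were 1, 2, 0, 2 and 2 genes in the same order, and DESeq2 called 0, 0, 0, 2 and 2. For melanoblasts, 382 of all genes had an unadjusted p under 0.05, and DESeq2 called 2.

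Kitl in fibroblasts had the widest stage difference. The control level was 21.7 ± 6.43 CPM at the earlier stage and 163 ± 118 CPM at the later one (SD, n = 2 each), a log2 difference of 2.89 ± 0.52 (SE, adjusted p = 0.0754 by edgeR). It was 9.42-fold in replicate 1 and 4.65-fold in replicate 2. The 2 LOF libraries, which did not enter the fit, were at 31.5 and 259 CPM. DESeq2 put the call past the threshold (adjusted p = 2.36e-07), as did the fit without any 1 of the libraries (adjusted p = 0.000197 to 0.029). Without E14.5 control 1 the difference was 2.003. The 2 E14.5 libraries with high Gm42418 were also those with the highest Kitl, and the part of Gm42418 in this result was not tested.

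Ednra in control fibroblasts went from 22.3 ± 0.785 to 42.6 ± 5.03 CPM between the stages (SD, n = 2 each), a log2 difference of 0.95 ± 0.23 (adjusted p = 0.12 by edgeR, 0.0317 by DESeq2). It was past the threshold in 4 of 11 alternatives, among them fits without an E14.5 control but none without an E13.5 control. Those fits leave 1 library at a stage, so no p-value is given for them. Over the alternatives the difference ran from 0.86 to 1.03. Edn3 in fibroblasts was at 14.03 ± 2.97 and 24.0 ± 8.28 CPM, a difference of 0.77 ± 0.31 (adjusted p = 0.279 by edgeR). Over 11 alternatives that difference ran from 0.49 to 1.05. Both genes were higher in both E14.5 controls than in either E13.5 control. In LOF, Ednra was at 16.3 and 34.4 CPM and Edn3 at 7.10 and 19.8 CPM at E13.5 and E14.5.

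Kit was higher at E14.5 in both of its classes, by values that missed the threshold. In melanoblasts it was at 236 ± 14.3 and 448 ± 197 CPM (SD, n = 2 each), a log2 difference of 0.99 ± 0.32 (adjusted p = 0.542 by edgeR). In mast cells it was at 179.9 ± 30.3 and 334 ± 114 CPM, a difference of 0.89 ± 0.29 (adjusted p = 0.376 by edgeR). Without E14.5 control 2 the differences were 1.23 and 1.13 in edgeR, with that stage then resting on the library that has high Gm42418. With 1 library left at that stage, no p-value is given for these 2 values. Gm42418 in melanoblasts was at 1347 CPM in E14.5 control 1 and 445 CPM in E14.5 LOF, against 24.9 to 103 CPM in the others, and its part was not tested.

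In melanoblasts Mitf differed by 0.21 ± 0.36 and Ednrb by −0.10 ± 0.37 log2 units between stages (adjusted p = 0.929 and 0.969 by edgeR), and the sign of each turned in 2 of 13 alternative settings. Ednra in mast cells was at 6.01 ± 0.740 and 20.2 ± 4.73 CPM (SD, n = 2 each), a difference of 1.71 ± 0.60 (adjusted p = 0.469 by edgeR). Kitl in keratinocytes was at 34.0 ± 3.16 and 48.2 ± 30.4 CPM, a difference of 0.53 ± 0.41 (adjusted p = 0.553 by edgeR). This one was 1.01 without E14.5 control 2 and −0.22 without E14.5 control 1, each with 1 library left at that stage. The calls of DESeq2 in keratinocytes were Edn1, higher at E14.5 (adjusted p = 0.000793), and Edn3, lower (adjusted p = 0.00354). These 2 are below 10 CPM and are named because their values were seen. Edn1 was at adjusted p = 0.0564 and Edn3 at adjusted p = 0.081 in edgeR.

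Of the pathway lists, 1 of 10 tested mast cell granule and receptor genes was past the stage test in mast cells, against 0.252% of all genes. In keratinocytes 1 of 8 tested pigment and melanosome genes was past it, against 0.901% of all genes. In fibroblasts 1 of 15 tested migration and survival genes was past it, against 0.284% of all genes. They were Tpsab1, a mast cell tryptase gene (−1.83 ± 0.33, adjusted p = 0.035 by edgeR), the melanocyte channel gene Trpm1 in keratinocytes (3.38, adjusted p = 0.047) and the cadherin gene Cdh3 in fibroblasts (−2.68 ± 0.27, adjusted p = 0.04). No KIT or endothelin cascade gene was past the stage test in any class, where 0% to 0.901% of all genes were.

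**Figure D4:**
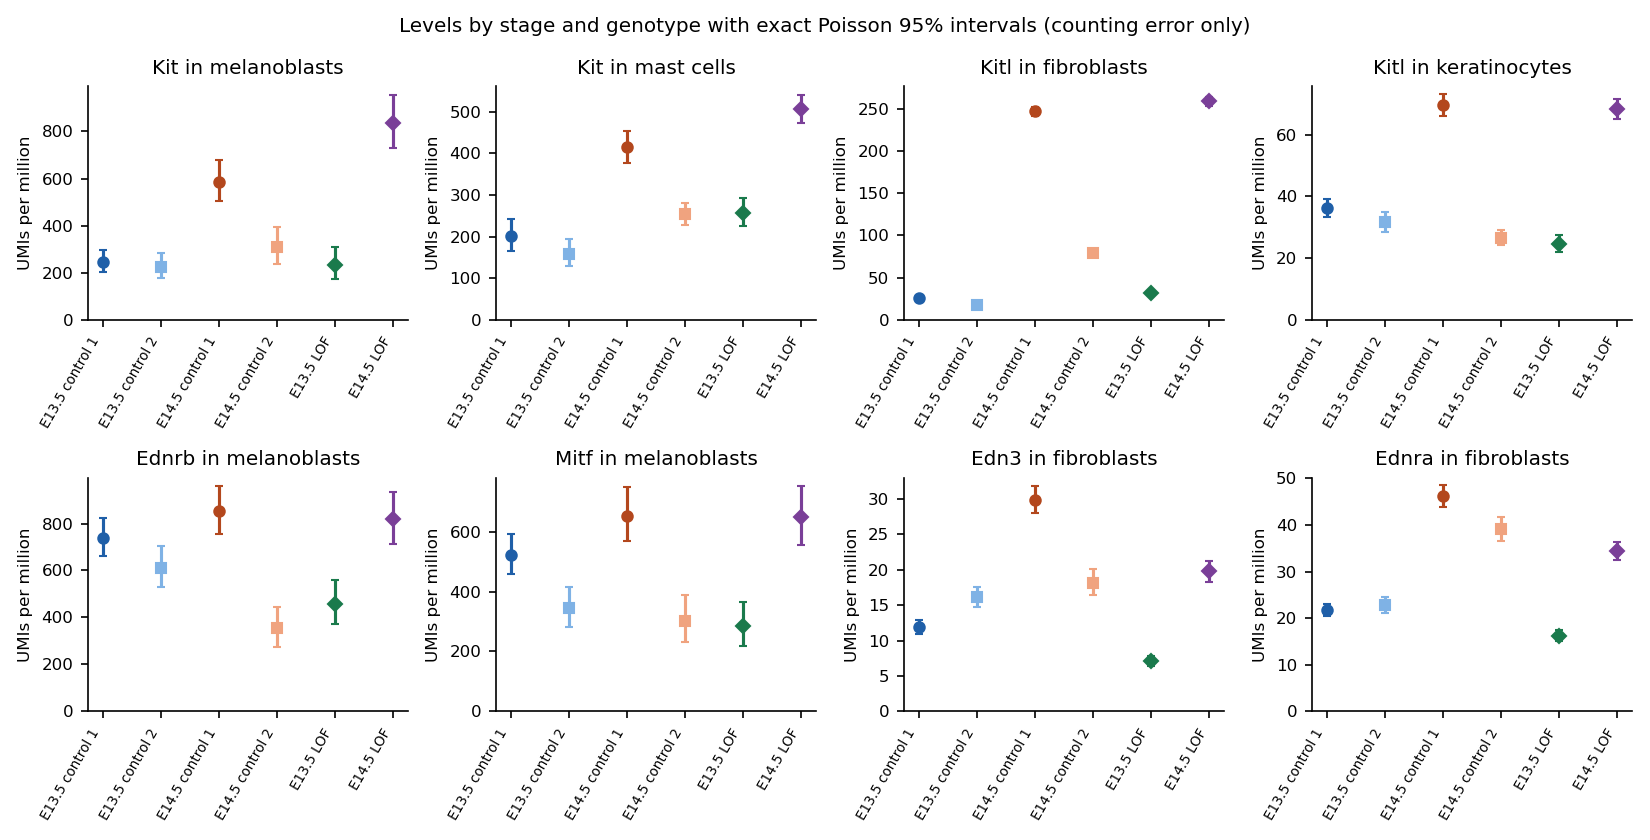
Levels of 6 of the genes in 8 gene and class pairs (y axis, CPM, linear from 0), 1 point per library with exact 95% Poisson intervals for counting error only. Kitl in fibroblasts lies between 17.1 and 31.5 CPM at E13.5 and between 79.5 and 259 CPM at E14.5, with E14.5 control 2 the lowest of its stage.

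LOF and control were compared over the 6 libraries with stage as a covariate. None of the genes was past the edgeR test in melanoblasts (3 tested), mast cells (4), Schwann cells (4), keratinocytes (7) or fibroblasts (7), where 0% of all genes were in each class. At an unadjusted p under 0.05 there was 1 of these genes in mast cells, 2 in fibroblasts and 0 in the other classes, and DESeq2 called 0 in each. Over all genes, 159, 173, 165, 233 and 1307 had an unadjusted p under 0.05, and DESeq2 called 0, 0, 0, 4 and 281. With 1 LOF library per stage, the values below are single libraries against the mean of 2 controls.

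In fibroblasts, where Cre acts, Edn3 was at 0.506 times the control mean at E13.5 (7.10 against 14.03 ± 2.97 CPM) and 0.823 times at E14.5 (19.8 against 24.0 ± 8.28 CPM; SD, n = 2). The fitted log2 difference was −0.67 ± 0.28 (adjusted p = 0.596 by edgeR). It was −0.65 when the replicate 2 controls, which hold eGFP, were left out, a setting chosen after the data were seen. With 1 library per stage and genotype in that setting, no p-value is given for it. The replicate 1 controls that remain in it held tdTomato, as given above. Over 14 alternatives the difference ran from −1.03 to −0.33. Ednra was at 0.730 and 0.806 times the control mean (−0.44 ± 0.16, adjusted p = 0.516 by edgeR), below both controls at each stage. Kitl was at 1.45 and 1.59 times the control mean (0.58 ± 0.38, adjusted p = 0.778 by edgeR).

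Within LOF fibroblasts, cells with an eGFP UMI and cells without one were close. At E13.5 Edn3 was at 7.08 and 7.12 CPM, Kitl at 32.4 and 30.5 CPM and Ednra at 15.1 and 17.4 CPM. At E14.5 Edn3 was at 19.8 CPM in both, Kitl at 266 and 246 CPM and Ednra at 35.1 and 33.1 CPM. Recombined cells can lack an eGFP UMI at this depth, so the cells without one are a mixture. At E13.5 and E14.5 LOF an eGFP UMI was also in 21.8% and 6.32% of mast cells and 19.8% and 6.60% of Schwann cells. It was in 7.26% and 4.27% of keratinocytes and 7.14% and 0% of melanoblasts. Fibroblasts with an eGFP UMI may therefore include unrecombined cells, which was not tested.

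In melanoblasts, Kit was at 0.987 times the control mean at E13.5 and 1.87 times at E14.5 (0.49 ± 0.30, adjusted p = 0.9998 by edgeR). Ednrb was at 0.677 and 1.36 times (−0.02 ± 0.32) and Mitf at 0.657 and 1.36 times (−0.04 ± 0.32). Against E14.5 control 1, the control that like E14.5 LOF has high Gm42418, the E14.5 LOF level was 1.43 times for Kit, 0.958 times for Ednrb and 0.995 times for Mitf. In mast cells Kit was at 1.43 and 1.51 times the control mean (0.51 ± 0.22, adjusted p = 0.999 by edgeR), above both controls at each stage. Ednrb in Schwann cells was at 1.40 and 1.38 times (0.44 ± 0.25, adjusted p = 0.9997 by edgeR), also above both controls at each stage. The E13.5 LOF library held 14 melanoblasts, so that its values rest on 50 Kit UMIs.

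The genes whose levels were most like those of each member were taken by Pearson's r of log2(CPM + 5) over 52 class-by-library sums, which share libraries and depth. For Kit these were Car8 (0.939), Psen2 (0.924) and Optn (0.910), and for Mitf Plgrkt (0.916), Psen2 (0.909) and Plxnc1 (0.906). For Ednrb they were Ubl3 (0.919), Ptprj (0.913) and Smpdl3a (0.881), and for Ednra Pdgfrb (0.921), Aspn (0.866) and Epb41l1 (0.863). Of the ligands, Kitl was most like Tgfbr3 (0.877), Prnp (0.839) and Nhs (0.832), Edn3 most like Ptgis (0.927), Lrrn1 (0.915) and Cdkn1c (0.893), and Edn1 most like Madcam1 (0.928), Mall (0.925) and Dll4 (0.923). Psen2 was the gene named for both Kit and Mitf.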

How the data were processed

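Chromium 3′ v2 libraries of 6 skin samples were sequenced on an Illumina HiSeq instrument, per the labels. The deposited matrices hold raw UMI counts made by the authors, and per the submitters' processing notes Cell Ranger and Seurat were used with mm10 (GRCm38). Versions and the rule that selected cell barcodes are not given in the sources used here. The barcode and gene name columns of the deposited files are of other kinds and name cells and genes.

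Barcodes under 1000 UMIs, under 500 genes or above 10% mitochondrial UMIs were dropped. Cut-offs in summed marker UMIs per 10000 UMIs of the cell were 4 for Schwann cells, 5 for keratinocytes and 15 for fibroblasts. They were set at the low point of each distribution. Cells that reached the cut of more than 1 class were left out, except that melanoblasts which also reached the Schwann cut were kept, a departure from the plan chosen after the data were seen. No doublet was removed, and the top 5% of doublet scores were left out as an alternative. Counts were summed per class and library and tested with edgeR 4.0.16 (R 4.3.3; quasi-likelihood, robust, TMM factors, filterByExpr) with Benjamini-Hochberg adjustment over all genes tested. The threshold was an adjusted p of 0.05. DESeq2 1.42.0 was an alternative, beside RLE factors, no filter, other cut-offs and leaving out each library. Stage was tested in the 4 controls, genotype in 6 libraries with stage as covariate, and classes with library as a block. The upper against deep dermis test was added after the data were seen. Classes, thinning to 3000 UMIs and exact 95% intervals, which cover counting error only, were computed with Python 3.11.15, numpy 2.4.6, scipy 1.17.1 and pandas 2.3.3.

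The 7 genes and all gene lists were chosen with earlier results of these data known. A stage or genotype difference is given for a gene whose mean reached 10 CPM in a class, and otherwise its level. List genes are named among those past a test, at most 4 per list and comparison, and the genes most like a member are the 3 with the highest r among those reaching 20 CPM. On simulated counts with 4-fold changes, the melanoblast fits recovered 75.9% (stage) and 79.1% (genotype) of changed genes that passed the filter, and the fibroblast fits 99% and 100%. False calls in the same order numbered 8, 2, 16 and 5. Apart from these changes, the simulation gave every gene the same dispersion and let libraries differ only in depth. The real libraries differ in more ways, as given above, so these shares are not the power of the real fits.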

Additional observations from a re-analysis of the deposited data

Results flagged for a closer look

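The level of Edn3 lay on opposite sides between stages in the epidermis and the dermis, although neither class passed the edgeR stage test (adjusted p = 0.081 in keratinocytes and 0.279 in fibroblasts). The mean of the E14.5 controls was 0.199 times that of the E13.5 controls in keratinocytes and 1.71 times in fibroblasts, with both libraries of each stage on the same side in each class, and the difference between the classes was not tested. Kitl in Schwann cells of LOF embryos was 0.774 times the control mean at E13.5, below both controls, and 1.97 times at E14.5, above both. Mitf in mast cells of LOF embryos was 0.815 times the control mean at E13.5, below both controls, and 1.33 times at E14.5, above both. Neither of these differences between stages was tested, and each rests on 1 LOF library per stage.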

How the results depend on the processing

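The numbers of the 7 genes past the class and dermis comparisons stayed within 1.5 times of those given under each alternative that was run. The number of the 7 genes past the stage test, 0 in every class, moved in 4 classes. Leaving out 1 library gave 0 to 1 in melanoblasts, 0 to 1 in mast cells, 0 to 3 in keratinocytes and 1 to 3 in fibroblasts. In keratinocytes DESeq2 gave 2, no filter 2 and the looser cut 1, and in fibroblasts DESeq2 gave 2. The replicate block, which pairs control libraries by number, gave 2 in keratinocytes and 2 in fibroblasts (Kitl, adjusted p = 9.17e-05, and Ednra, 0.0372, by edgeR), and no gene in the other classes. Same-numbered controls deviated together (r = 0.182, 0.321, 0.357, 0.381 and 0.388 in melanoblasts, mast cells, Schwann cells, keratinocytes and fibroblasts), but there are only 2 pairs and the labels do not say that a number marks a shared batch. Over all genes the block called 5, 43, 167, 1163 and 1415, against 0, 17, 5, 114 and 41 without it, and DESeq2 called 2, 17, 17, 555 and 947. Over every alternative run the counts of all genes reached 0 to 476, 4 to 527, 0 to 1376, 20 to 2687 and 0 to 3547 by stage, the highest each time without E14.5 control 2, and at most 8, 8, 10, 53 and 423 by genotype, against 0. Between keratinocytes and fibroblasts 7479 genes were called, and 11395 with no filter. For genotype in fibroblasts, a term for the 3 pairs of libraries alike in Gm42418 and Gstp1 gave 1 (Edn3, adjusted p = 0.0383 by edgeR). The setting with replicate 1 controls only has 1 library per stage and genotype, so its count is not given. Shares of cells with a UMI fell on thinning to 3000 UMIs: Kit from 90.1% to 63.5% in melanoblasts and 91.3% to 55.1% in mast cells, Ednrb from 96.6% to 75.0% in melanoblasts and 95.1% to 80.1% in Schwann cells. Mitf went from 87.7% to 58.6% in melanoblasts, 60.2% to 20.4% in mast cells and 8.06% to 2.47% in Schwann cells. Kitl went from 34.5% to 17.1% in Schwann cells and 33.8% to 11.6% in keratinocytes, Edn3 from 11.6% to 4.98% in fibroblasts, and Ednra from 17.3% to 4.70% in mast cells and 20.7% to 8.49% in fibroblasts. The genotype fit in melanoblasts without cells that reach the Schwann cut was not run, since 8 cells were left in E13.5 LOF. Where a left-out library leaves 1 at a stage, that library is assumed to vary like the others.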
